A study of Mus musculus with 12 samples.

Results

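The circadian clock genes described here were Arntl, Clock, Npas2, Nfil3, Per1, Per2, Per3, Dbp, Nr1d1 and Nr1d2. They were chosen by name, as the probes whose gene name on the array equals one of these 10, out of 34844 gene names. The array carried 13 probes for them, 11 of which were well above background often enough to be kept, for 9 of the 10 genes. The study deleted Nkx2-5, a cardiac transcription factor, from the trabecular myocardium of the mouse and followed the adult hearts. Left ventricular RNA of 12 mice aged 6 months was hybridised to 12 one-colour arrays, 1 mouse per array and 4 per group. TrbE10 mice had received tamoxifen in utero at E10.5 and E11.5, and TrbE14 mice at E13.5 and E14.5. In both mutants the Floxed-Nkx2-5-ΔNeo alleles were recombined by Cx40-creERT2, a tamoxifen-dependent Cre expressed from the Cx40 locus in the developing trabecular myocardium, so the deletion is not meant to reach every myocyte of the wall. Tamoxifen-exposed newborns were delivered by caesarean section and raised by CD1 foster mothers. Control mice were not injected according to the labels, while the methods describe them as littermates with 2 floxed alleles and no Cre, so tamoxifen exposure of the controls is not settled. The time of day at which the hearts were collected is not given in the sources used here.

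The clock is a feedback loop of transcription that runs in most cells, cardiac myocytes among them. BMAL1, the product of Arntl, binds E-boxes with CLOCK or its paralogue NPAS2 and activates Per, Dbp and Nr1d genes. PER proteins repress that activity, REV-ERB receptors (from Nr1d1 and Nr1d2) repress Arntl, Clock, Npas2 and Nfil3 through RRE sites, and DBP and NFIL3 activate and repress through shared D-boxes. Arntl, Clock, Npas2 and Nfil3 are called the positive arm below, and Per1, Per2, Per3, Dbp, Nr1d1 and Nr1d2 the negative arm. The names stand for genes whose RNA peaks at opposite times, and NFIL3 itself is a repressor.

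The 3 kinds of site were searched on both strands in promoter sequences of RefSeq (GRCm38.p6), each a window from 250 bases before to 50 after a start. Of the 10 genes, 9 had windows, 13 in all. Per2 had none. The E-box CACGTG was found in 7.15% of all 32851 windows and for 1 of the 9 genes, Per1, at 166 bases before the start. The D-box TTANGTAA was in 2.32% of all windows and for 1 gene, Per3, with copies at 205 and 158 bases before the start. The RRE, written as AANTN followed at once by GGTCA, was in 0.606% of all windows and for 1 gene, Arntl, at 28 bases after a start. These 3 stretches are shown because Per1, Per3 and Arntl hold the sites that the proteins of other genes in the set bind, with the site in capitals. They read 5′ to 3′ on the strand of the gene.
Per1, chr11:69098749-69098848, plus strand: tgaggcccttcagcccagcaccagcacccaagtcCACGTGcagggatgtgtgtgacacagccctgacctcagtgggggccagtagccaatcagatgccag
Per3, chr4:151044786-151044905, minus strand: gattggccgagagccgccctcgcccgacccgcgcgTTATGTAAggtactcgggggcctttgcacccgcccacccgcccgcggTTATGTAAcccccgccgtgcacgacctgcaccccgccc
Arntl, chr7:113207528-113207557, plus strand: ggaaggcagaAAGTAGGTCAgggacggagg
A match gives letters only, and binding was not measured.

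The library checks concerned few of these genes. Nkx2-5 itself had a log2 signal of 11.89 to 12.23 in control, 11.21 to 11.67 in TrbE10 and 11.12 to 11.63 in TrbE14, with no overlap between control and mutants. Its log2 change was -0.66 in TrbE10 (adjusted p = 0.0459, limma) and -0.59 in TrbE14 (adjusted p = 0.106, limma). Control and TrbE14 arrays shared slide 1 and all TrbE10 arrays were on slide 2, so slide and TrbE10 cannot be told apart. Y-linked genes were read in 6 hearts, at a mean log2 signal of 10.20 to 10.37 against 2.39 to 3.72 in the others. These were 1 control, 2 TrbE10 and 3 TrbE14 hearts. Summed cardiomyocyte markers stayed within 19.30 to 19.54 on the log2 scale in the 12 hearts, and all 6 markers were kept. The sum is taken on the linear scale and rests mostly on Actc1 and Myh6, whose mean log2 signals were 18.05 and 17.90. In whole ventricle, fewer cells of a type and less RNA per cell cannot be told apart.

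Signals of the clock genes differed widely from heart to heart within each group. In each group 1 heart had the lowest Dbp signal together with the highest Arntl and Nfil3, namely control replicate 1, TrbE10 replicate 2 and TrbE14 replicate 2. No member differed between groups in limma, while 32 of 36 pairs of members were correlated across hearts within groups.

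Dbp encodes an activator that binds D-boxes and is among the genes of largest daily amplitude. Its log2 signals, replicates 1 to 4 in order, were 11.21, 13.94, 14.24 and 14.505 in control, 13.75, 11.81, 14.22 and 14.20 in TrbE10, and 13.42, 11.98, 14.20 and 14.35 in TrbE14. In every group 1 heart lay far below the other 3, and the groups overlapped over nearly their whole range. The lowest and the highest heart differed 9.84-fold. The SD within a group (n = 4) was 1.53 in control, 1.15 in TrbE10 and 1.08 in TrbE14. The log2 change between group means was 0.02 in TrbE10 (95% interval -1.75 to 1.79, adjusted p = 0.993, limma) and 0.02 in TrbE14 (-1.76 to 1.79, adjusted p = 0.994, limma), so a change of up to about this size in either direction was not detectable with 4 hearts per group. A second Dbp probe gave the same order of the lowest heart in each group, at 11.15 in control, 11.70 in TrbE10 and 11.91 in TrbE14.

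Arntl, the non-redundant activator of the loop, ran the other way. Its log2 signals were 9.19, 8.16, 7.59 and 7.84 in control, 8.23, 9.37, 7.94 and 6.92 in TrbE10, and 8.54, 9.45, 7.56 and 7.71 in TrbE14. The highest heart of each group was the one with the lowest Dbp. Over the 12 hearts the range was 5.77-fold. Group means were 8.20 ± 0.70 (SD, n = 4), 8.12 ± 1.00 and 8.32 ± 0.87 in control, TrbE10 and TrbE14, and the log2 change was -0.08 in TrbE10 and 0.12 in TrbE14 (adjusted p = 0.961 and 0.938, limma).

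Nfil3, which encodes the repressor that shares D-boxes with DBP, had log2 signals of 11.32, 9.49, 9.48 and 9.22 in control, 9.09, 10.23, 9.13 and 9.34 in TrbE10, and 9.53, 10.39, 9.11 and 9.55 in TrbE14. Again 1 heart per group stood above the other 3, and it was the same heart as for Arntl. The log2 change was -0.43 in TrbE10 and -0.23 in TrbE14, within intervals of -1.43 to 0.57 and -1.23 to 0.76. Clock, the partner of BMAL1, is known to vary little over the day, and its log2 signals were 7.98, 7.72, 7.11 and 7.02 in control, 7.31, 7.81, 7.29 and 7.57 in TrbE10, and 7.60, 7.64, 7.18 and 7.47 in TrbE14. Its whole range was 1.93-fold, the narrowest of the 9 genes, yet its highest value in each group fell in the same heart as that of Arntl. Npas2 was not well above background on any array, and no level is given for it.

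**Figure D1:**
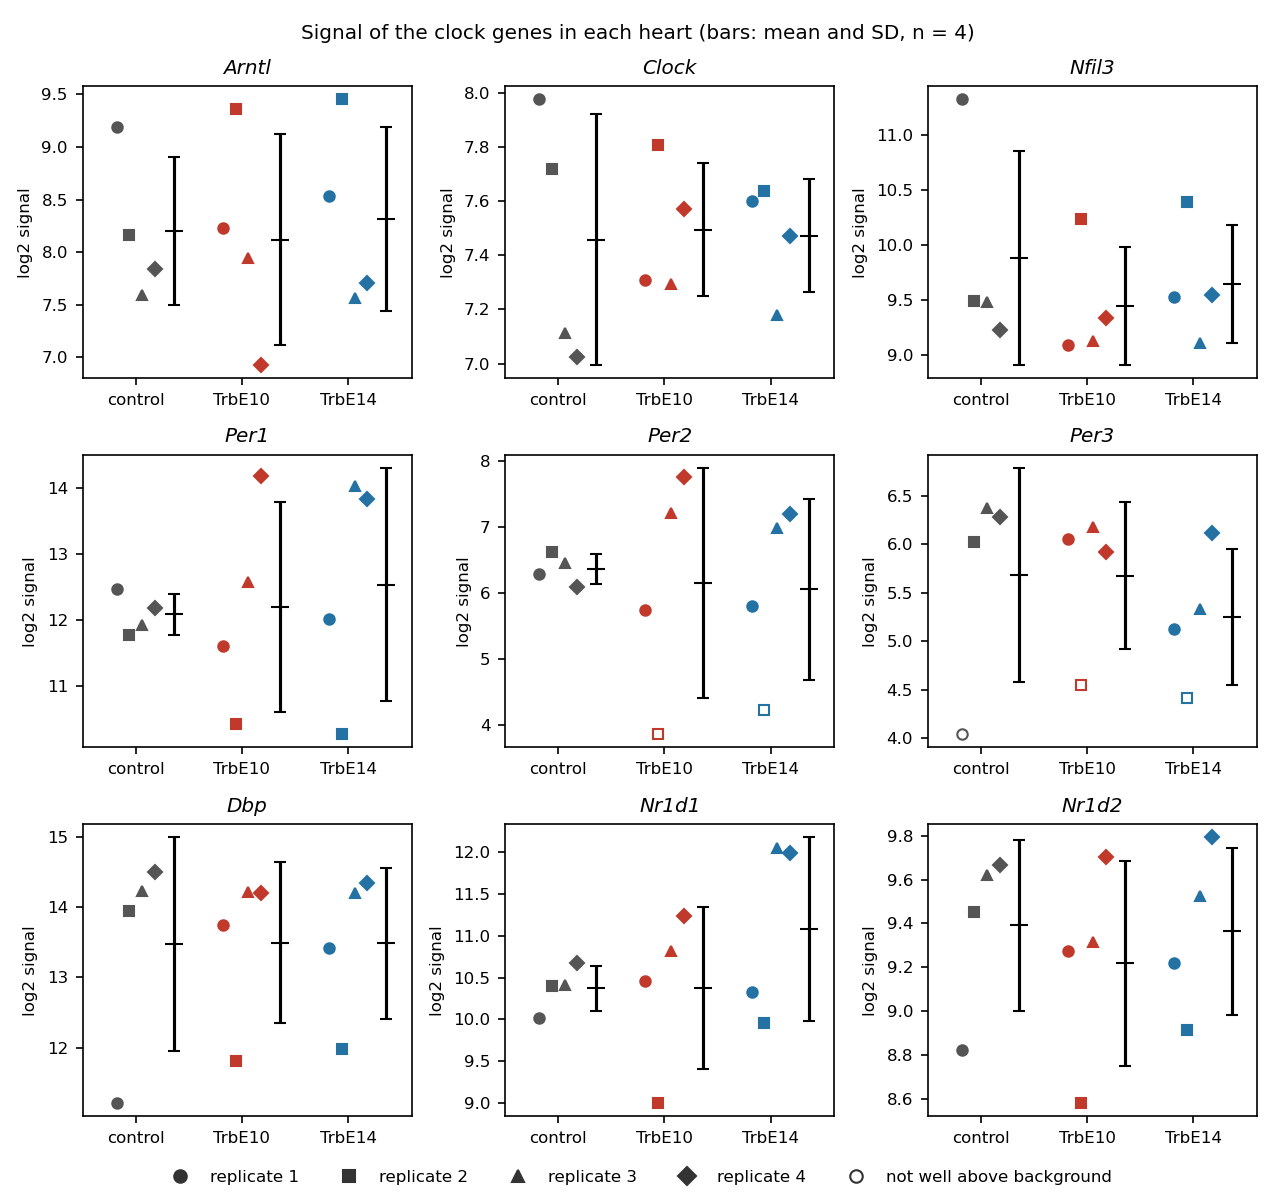
Log2 signal of each kept clock gene in the 12 hearts by group, with the replicate given by the marker, open markers for values not well above background, and the mean and SD of 4 hearts at the right of each group. Control replicate 1, TrbE10 replicate 2 and TrbE14 replicate 2 had the lowest Dbp (11.21, 11.81 and 11.98) and the highest Arntl (9.19, 9.37 and 9.45) of their groups.

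Per3, a period gene, followed Dbp. Its log2 signals were 4.04, 6.03, 6.37 and 6.28 in control, 6.06, 4.55, 6.17 and 5.92 in TrbE10, and 5.12, 4.41, 5.33 and 6.12 in TrbE14. The lowest heart of each group was again the one with the lowest Dbp, and there Per3 was not well above background, so its distance from the others is a lower limit. Nr1d2, which encodes REV-ERB beta, had log2 signals of 8.82, 9.45, 9.62 and 9.67 in control, 9.27, 8.58, 9.31 and 9.70 in TrbE10, and 9.22, 8.91, 9.53 and 9.79 in TrbE14. The same 3 hearts were lowest, over a narrower range than Dbp. Its second probe gave 8.80, 8.43 and 8.80 in them, although the array annotation (mm9) puts that probe on chromosome 19 and the first on chromosome 14.

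Per1 and Per2 encode period repressors and Nr1d1 encodes REV-ERB alpha. They formed a further pattern, in which the highest values were found in mutant hearts. Per1 log2 signals were 12.47, 11.77, 11.92 and 12.18 in control, 11.61, 10.42, 12.58 and 14.19 in TrbE10, and 12.01, 10.27, 14.03 and 13.84 in TrbE14. The mutants held both the highest and the lowest hearts and the controls lay between them. The 12 hearts spanned 15.1-fold. The log2 change was 0.11 in TrbE10 (95% interval -1.82 to 2.05) and 0.45 in TrbE14 (-1.48 to 2.38), with adjusted p = 0.968 and 0.838 (limma). The second Per1 probe was not well above background on any array.

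Per2 log2 signals were 6.28, 6.61, 6.45 and 6.09 in control, 5.74, 3.86, 7.21 and 7.76 in TrbE10, and 5.80, 4.22, 6.99 and 7.19 in TrbE14. In replicates 3 and 4 of each mutant it lay above every control, and in replicates 1 and 2 below every control. The 2 lowest values, both in the mutant hearts of lowest Dbp, were not well above background. Nr1d1 log2 signals were 10.01, 10.40, 10.41 and 10.67 in control, 10.46, 8.998, 10.82 and 11.23 in TrbE10, and 10.33, 9.95, 12.05 and 11.99 in TrbE14. Its log2 change of 0.71 in TrbE14 was the largest of the 9 genes, with an interval of -0.50 to 1.91 and adjusted p = 0.574 (limma). In each mutant 2 of 4 hearts lay above every control.

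The spread of these 3 genes, picked for this pattern, within the control group was small beside that within the mutants. The SD of Per1 over 4 hearts was 0.31 in control, 1.59 in TrbE10 and 1.77 in TrbE14, that of Per2 was 0.22, 1.74 and 1.36, and that of Nr1d1 was 0.27, 0.97 and 1.10. The ratio of the control SD to the mean of the mutants' SDs was 0.184 for Per1, 0.144 for Per2 and 0.262 for Nr1d1, against a median of 0.830 over 18015 genes, which put them at percentiles 1.90, 0.935 and 4.85. The ratio was below 1 for 5 of the 9 genes. It was 2.05 for Clock, 1.81 for Nfil3, 1.51 for Per3 and 1.37 for Dbp, at percentiles 93.9, 90.9, 84.6 and 80.4. These ratios were computed after the values had been seen and the difference in spread was not tested.

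Over the 9 genes the residual SD within groups had a median of 0.869 on the log2 scale, against 0.207 over all 18021 genes kept. Per1 stood at percentile 99.6 of all genes by this SD, Dbp and Per2 at 99.4, Per3 at 97.8, Arntl at 97.7, Nr1d1 at 97.6, Nfil3 at 95.7, Nr1d2 at 83.0 and Clock at 73.3. The wide intervals of the group comparisons follow this spread, since limma divides each difference by it.

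**Figure D2:**
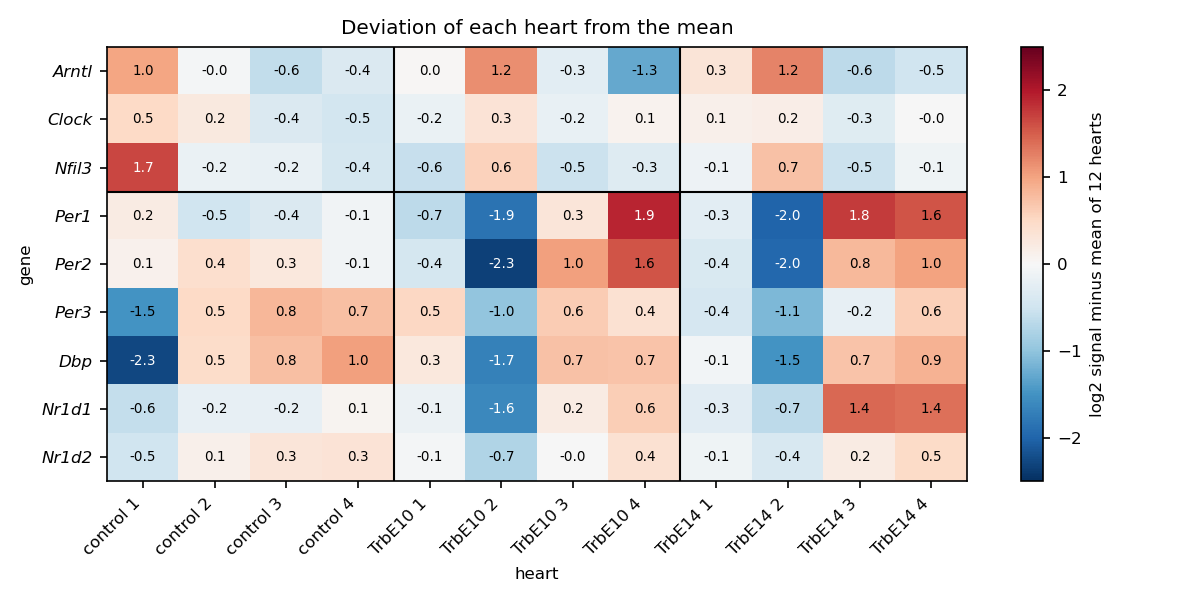
Heat map of the log2 signal of each gene (rows) in each heart (columns) minus its mean over 12 hearts, positive arm above the horizontal line and groups parted by vertical lines. The columns of TrbE10 replicate 2 and TrbE14 replicate 2 are opposite above and below the line, as is that of control replicate 1 except for Per1 and Per2.

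Against this spread, 0 of the 9 genes were called (adjusted p under 0.05, limma) in TrbE10 against control, where 2.15% of all genes were (1.36% higher and 0.788% lower), and 0 of 9 in TrbE14 against control, where 0.76% were (0.583% higher and 0.178% lower). Between the mutants 0 of 9 were called and 0% of all genes. Over the 3 groups 0 of 9 were called, with 1.37% of all genes. At an unadjusted p under 0.05 the count was also 0 of 9 in each comparison, where 19.8%, 16.6%, 7.41% and 17.2% of all genes passed. A share of 2.15% of 9 genes is under 1 gene, so the counts of called genes do not set the clock genes apart. The groups overlapped for each of the 9 genes, whereas they did not overlap for 10.6% of genes in TrbE10, 10.1% in TrbE14 and 3.37% between the mutants. The lowest adjusted p of a member was 0.574.

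**Figure D3:**
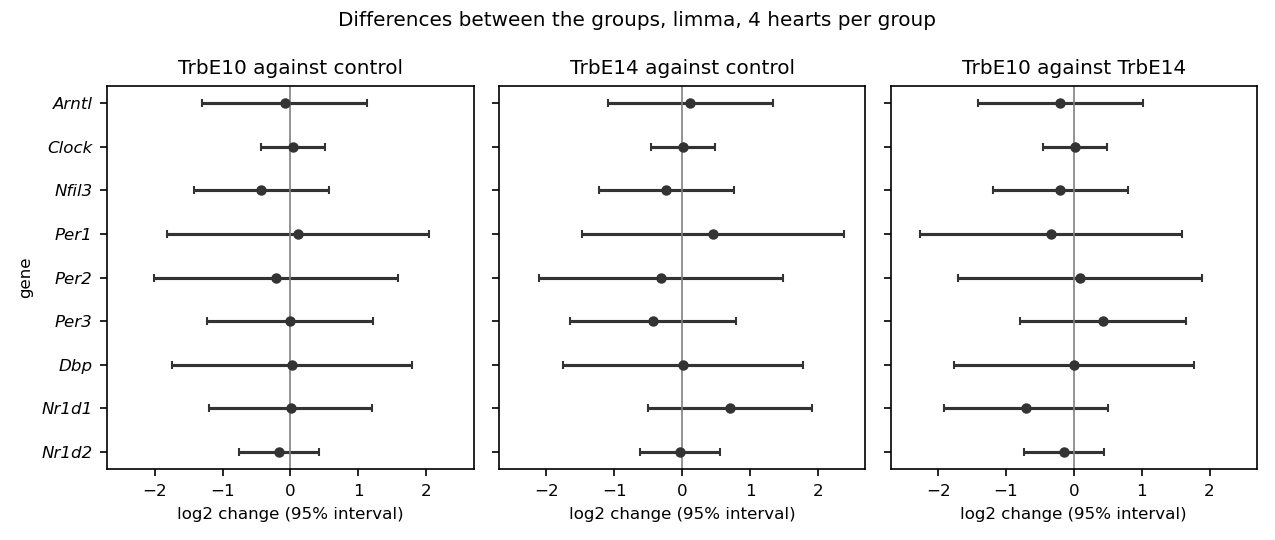
Log2 change of each clock gene with its 95% interval from limma, for TrbE10 against control, TrbE14 against control and TrbE10 against TrbE14, 4 hearts per group. Every interval spans 0, from -0.43 to 0.51 for Clock in TrbE10 to -1.48 to 2.38 for Per1 in TrbE14.

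The next comparison asked whether the arms of the clock moved against each other from heart to heart. Group means were subtracted first, which removes differences in level between groups or slides but not differences in spread, and Pearson's r was tested over the 12 hearts by an exact two-sided permutation within groups (13824 orders), with Benjamini-Hochberg adjustment over the 36 pairs of the 9 genes. All 18 pairs across the arms had a negative r, with a median of -0.800, and 15 passed. All 15 pairs within the negative arm had a positive r, with a median of 0.798, and 14 passed. The 3 pairs within the positive arm had a median r of 0.781 and passed. Without the heart of lowest Dbp in each group, Clock and Nfil3 had r = 0.726 (exact permutation p = 0.0509), Arntl and Clock 0.191 (p = 0.579) and Arntl and Nfil3 -0.041 (p = 0.940). The median absolute r was 0.790, against 0.274 over all pairs of 18015 genes, and it was 0.8 or more for 47.2% of the member pairs against 1.30% of all pairs.

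Arntl and Dbp had r = -0.902 (rho = -0.783, exact permutation p = 0.000651 and 0.00456, adjusted p = 0.00293 for r). Arntl and Nr1d2, whose product represses Arntl, were the closest pair across the arms, with r = -0.963 (rho = -0.944, exact permutation p = 0.000434 and 0.000651). Nfil3 and Dbp, which compete for the same site, had r = -0.955 (rho = -0.692, exact permutation p = 0.00579 and 0.0352). Without the heart of lowest Dbp in each group, r of this pair was -0.282 (exact permutation p = 0.667).

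Within the negative arm Dbp and Per3 were closest, with r = 0.968 (rho = 0.909, exact permutation p = 0.000651 and 0.00109), but Per3 was not well above background in the 3 hearts of lowest Dbp, and without them r was 0.660 (exact permutation p = 0.255). Per1 and Per2 had r = 0.933 (rho = 0.860, exact permutation p = 0.00318 and 0.0201), and Per1 and Nr1d1 r = 0.908 (rho = 0.818, exact permutation p = 0.00629 and 0.0289). Dbp with Per3 and Nr1d2 on one side, and Per1 with Per2 and Nr1d1 on the other, thus held the higher r values over the 12 hearts, although Nr1d1 and Nr1d2 had r = 0.872. Without the heart of lowest Dbp in each group this split did not hold. Dbp then had r = 0.897 with Nr1d1, 0.812 with Nr1d2 and 0.660 with Per3. Per1 then had 0.888 with Per2, 0.883 with Nr1d1 and 0.871 with Nr1d2. Over the 12 hearts Per1 and Per3 had r = 0.450 (rho = 0.273) and did not pass, with exact permutation p = 0.120 and 0.431. The other 3 pairs that did not pass were Clock with Per1 (r = -0.276), Clock with Per2 (r = -0.327) and Nfil3 with Per1 (r = -0.384), at exact permutation p = 0.270, 0.195 and 0.151.

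**Figure D4:**
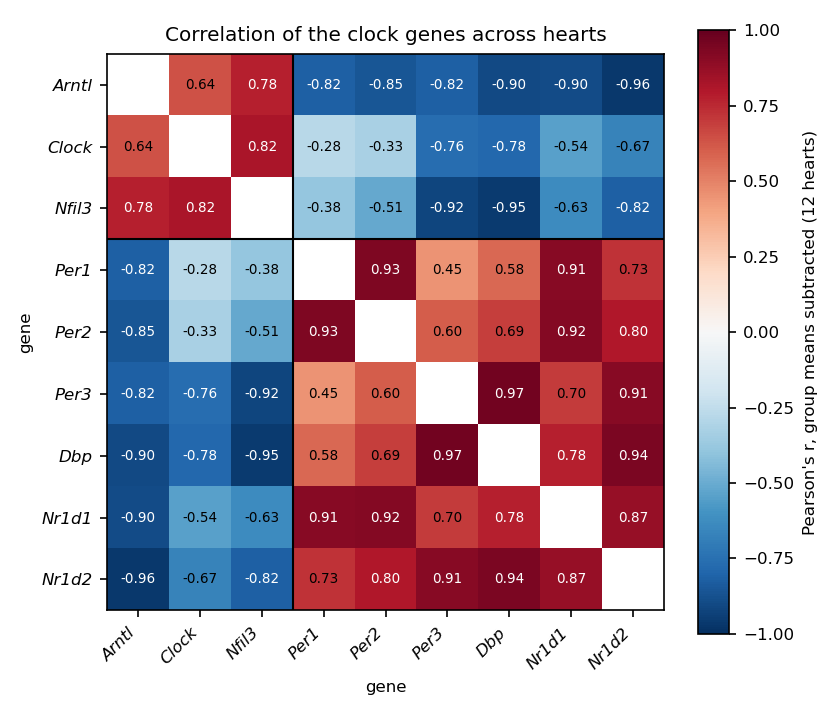
Pearson's r between the 9 clock genes (both axes) across 12 hearts after subtraction of group means, with the positive arm before the black lines. All 18 values across the arms are negative and all 18 within an arm positive, from -0.28 for Clock and Per1 to 0.97 for Dbp and Per3.

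The signs differed by group, with 4 hearts in each and no test of the difference. In TrbE10 and in TrbE14 all 18 pairs across the arms were negative and all 15 within the negative arm positive, whereas in control 14 of 18 were negative and 9 of 15 positive. All 5 pairs of Per1 with the rest of the negative arm were negative in control and positive in each mutant, and Arntl and Per1 were positive in control and negative in each mutant, so the r values of Per1 given above describe the mutant hearts and not the controls. Control replicates 2, 3 and 4 had Per1 at 11.77, 11.92 and 12.18 and Per2 at 6.61, 6.45 and 6.09, in opposite order. Control replicate 1 had the highest Arntl, 9.19, and the lowest Dbp, 11.21, of its group together with the highest Per1 of its group, 12.47, whereas in both mutants the heart of highest Arntl had the lowest Per1, 10.42 and 10.27. Values of 4 hearts were too few for a correlation within a group.

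Without subtraction of group means, Arntl and Dbp had r = -0.897 over 12 hearts (rho = -0.776, permutation p = 0.0002 and 0.00451 from 100000 resamples). Without the 2 hearts farthest from the median of Arntl, r was -0.817 (permutation p = 0.00167). Among the 8 control and TrbE14 hearts of slide 1 it was -0.932 (exact permutation p = 0.00375), and slide 2 held too few hearts. Without the heart of lowest Dbp in each group, a choice made after the values had been seen, r was -0.672 and rho -0.533 over 9 hearts (permutation p = 0.0497 and 0.147). Under the same choice 0 of 36 pairs passed within groups, where 216 orders allow no p under 0.00463 for a pair, and 28 of the 32 pairs that had passed kept their sign. Leaving out TrbE10 replicate 2 alone gave 21 pairs.

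**Figure D5:**
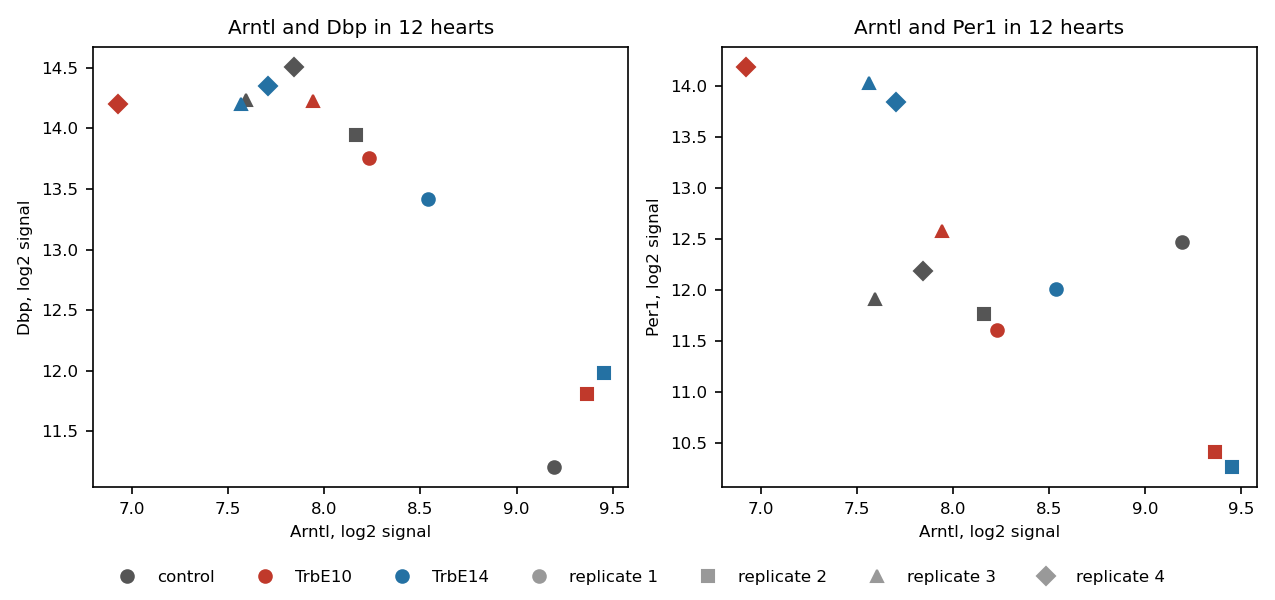
Log2 signal of Dbp (left) and Per1 (right) against that of Arntl in the 12 hearts, colour for group and marker for replicate. Dbp falls from 14.20 to 11.98 as Arntl rises from 6.92 to 9.45 across groups, and control replicate 1 lies apart from the mutants in the plot of Per1 (Arntl 9.19, Per1 12.47).

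Of 16 other genes of the clock, 13 were kept, and 0 were called between groups in any comparison. Across hearts, 5 of the 13 passed with Arntl, 5 with Dbp and 1 with Per1. The adjustment covered listed genes only, and the share of all genes that would pass the same cut was not computed. By size of r over all genes, those that passed ranked 4 to 274 with Arntl, 13 to 722 with Dbp and 519 with Per1. The log2 changes of the 13 genes had a median of -0.01 in TrbE10 and 0.07 in TrbE14, beside -0.02 and -0.03 over all genes. Tef, which encodes a relative of DBP, had log2 signals of 12.82, 13.55, 13.86 and 13.88 in control, 13.57, 12.92, 13.81 and 14.11 in TrbE10, and 13.23, 13.11, 14.00 and 14.07 in TrbE14. The lowest heart of each group was the one of lowest Dbp, and r was 0.932 with Dbp and -0.958 with Arntl (exact permutation p = 0.000217 and 0.000289, rho = 0.839 and -0.965 with exact permutation p = 0.00253 and 0.000362). Hlf, the remaining gene of that family, had r = 0.905 with Dbp and -0.926 with Arntl.

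Cry2, a cryptochrome repressor, had r = 0.833 with Dbp and -0.914 with Arntl. Usp2, a ubiquitin protease known as a clock output, had 0.761 and -0.878, and Bhlhe41, the repressor DEC2, had 0.723 and -0.824. These values for Hlf, Cry2, Usp2 and Bhlhe41 passed at an adjusted p of 0.0266 or less over 120 such tests of 40 genes (exact permutation within groups). The rho of these 4 genes was 0.678 to 0.818 with Dbp (exact permutation p = 0.00268 to 0.0123) and -0.951 to -0.839 with Arntl (exact permutation p = 0.000868 to 0.0112). Without the heart of lowest Dbp in each group, r of Tef and these 4 genes was 0.744 to 0.937 with Dbp and -0.898 to -0.736 with Arntl. The gene that passed with Per1 was Timeless, whose product binds clock proteins (r = -0.850, rho = -0.846, exact permutation p = 0.00239 and 0.0102, adjusted p = 0.0205). Cry1 was not well above background on any array, and Ciart, named Gm129 on the array, was so on 5 of 12 and was not kept.

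Arntl2, a paralogue of Arntl named here after its values were seen, had log2 signals of 5.73, 5.42, 7.35 and 5.29 in control, 7.98, 7.69, 8.77 and 8.04 in TrbE10, and 5.99, 7.14, 7.91 and 7.82 in TrbE14. These values come from the only Arntl2 probe that was kept, annotated to an Ensembl transcript. The probes annotated to the RefSeq transcript had mean log2 signals of 3.16 and 3.02 and rose well above background in no heart. A rise of Arntl2 therefore rests on the kept probe alone. With it, all 4 TrbE10 hearts lay above all controls, while 10.6% of all genes had no overlap, in either direction, in TrbE10. The log2 change of the kept probe was 2.17 in TrbE10 (95% interval 1.05 to 3.29) and 1.27 in TrbE14 (0.15 to 2.39). Neither passed (adjusted p = 0.0597 and 0.315, limma). Macrophage markers were also higher in the mutants. The summed log2 signal of 6 such genes was 12.97 to 13.28 in control, 13.88 to 14.10 in TrbE10 and 13.69 to 13.79 in TrbE14. In TrbE10 3 of the 6 were called higher and in TrbE14 1, where 1.36% and 0.583% of all genes were. In TrbE14 replicate 1 Arntl2 was 5.99, within the control range, and the macrophage sum was 13.76, above every control. Fibroblast markers were higher too, with a summed log2 signal of 5 genes of 16.03 to 16.19 in control, 16.39 to 16.65 in TrbE10 and 16.47 to 16.70 in TrbE14. Of these 5, 1 was called higher in each mutant. Arntl2 was not correlated with either set of markers, and the part of either in its values was not tested.

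The 8 listed outputs of the clock were all kept and 0 were called between groups. Across hearts, 1 of the 8 passed with each of Arntl, Dbp and Per1, and again the share of all genes that would pass was not computed. Tspan4, a tetraspanin, had r = 0.942 with Dbp and -0.854 with Arntl, ranks 6 and 154 by size over all genes. Without the heart of lowest Dbp in each group these were 0.749 and -0.328, so the value with Arntl rested on those hearts. Pdk4, a kinase that restrains pyruvate oxidation and is rhythmic in the heart, had r = 0.863 with Per1 (exact permutation p = 0.00702, rho = 0.916, exact permutation p = 0.00506). Its rank by size was 412, and without those hearts r was 0.784. The other 6, Wee1, Klf15, Kcnip2, Dgat2, Nampt and Por, passed with none of the 3, and their r with Dbp lay between -0.382 for Kcnip2 and 0.494 for Wee1. Wee1 and Klf15 nevertheless had an r with Per1 of 0.896 or more, above that of Pdk4. They missed the threshold at adjusted p = 0.0512 and 0.0537 (exact permutation within groups). Their r with Arntl was -0.782 and -0.716. The rest had an r with Per1 between -0.571 for Kcnip2 and 0.440 for Por. Per1 is also a target of glucocorticoids, and 6 of 6 listed glucocorticoid targets had a positive r with it, with a median of 0.795. The share of all genes with a positive r with Per1 was not computed. Zbtb16 (r = 0.852) and Tsc22d3 (r = 0.784) of this list passed (exact permutation p = 0.00448 and 0.00188). By size of r with Per1 over all genes they ranked 503 and 1161. Mt1 of the same list passed with Dbp (r = 0.724) and Arntl (r = -0.829), both at adjusted p = 0.0194 (exact permutation within groups). The 13 other genes of the clock that were kept had a median r of 0.726 with Per1. The SD of Per1 was 0.31 in control against 1.59 in TrbE10 and 1.77 in TrbE14, so every r with Per1 rests mostly on the mutant hearts. A part of glucocorticoids in these values was not tested. The 6 immediate early genes had a median r of 0.761 with Per1 and 0 passed, and 7 temperature-responsive genes had a median r of 0.15 with Per1 and 0 passed. That last list mixes cold-induced and heat shock genes, so its median says little. The cold-induced Cirbp and Rbm3 had r = 0.752 and 0.580 with Per1. The heat shock genes lay between -0.600 for Dnajb1 and 0.207 for Hspa1a.

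Among all 18015 genes with a full set of values, ranked by r as a description, those most like Dbp were Per3 (0.97), Tspan4 (0.94), Nr1d2 (0.94), Tnrc6a (0.94) and St6galnac2 (0.94). Those most opposed were Lonrf3 (-0.97), Azi2 (-0.96), BC018507 (-0.96), Nfil3 (-0.95) and Atad3a (-0.94). Those most like Arntl were BC057022 (0.98), Rcc1 (0.94), Atad3a (0.94), Lsm1 (0.94) and ENSMUST00000099210 (0.93). Those most opposed were Tcap (-0.98), which encodes the titin cap protein of the Z-disc, Nr1d2 (-0.96), Tef (-0.96), AK143362 (-0.94) and Nrip1 (-0.94). Each r was taken over 12 hearts with group means subtracted, and the points share arrays and normalization.

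Summed markers of 6 cell types, 2 measures of array quality and the Y-linked signal were set against Arntl, Dbp and Per1 in the same way, and 0 of 27 tests passed (lowest adjusted p = 0.357). Single cardiomyocyte markers had an r with Arntl from -0.369 for Tnnt2 to 0.891 for Ryr2. Their r with Dbp ran from -0.830 for Ryr2 to 0.164 for Tnnt2, and single markers were not tested. At an unadjusted p under 0.05, 2 of the 27 passed, both of endothelial markers, with r = -0.896 against Per1 (exact permutation p = 0.0132) and 0.722 against Arntl (exact permutation p = 0.0318). Single endothelial markers differed in sign. Their r with Per1 was -0.885 for Kdr, -0.415 for Tek, -0.185 for Tie1, 0.158 for Cdh5 and 0.686 for Pecam1. With Arntl it ran from -0.552 for Pecam1 to 0.734 for Kdr. Kdr was the brightest of the 5 (mean log2 signal 11.73) and so weighs most in the sum. The summed log2 signal of the 5 endothelial markers was 12.78 to 12.90 in control, 12.81 to 13.21 in TrbE10 and 12.87 to 13.21 in TrbE14, and their part in the Per1 values was not tested. The Y-linked signal had r = -0.520 with Dbp (exact permutation p = 0.152). All 3 hearts of lowest Dbp had the Y-linked signal, as did 3 of the other 9. With that signal as a covariate, 0 of 9 clock genes were called in any comparison.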

How the data were processed

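Left ventricular RNA of 12 mice, 4 per group, was hybridised to 12 one-colour Agilent arrays read in mm9 annotation. The deposited scanner output, made by the authors with Agilent Feature Extraction 10.5 per the submitters' processing notes, gives a background-subtracted intensity on a linear scale, not scaled between arrays. The authors also deposited log2 values for 22114 rows after quantile normalization and a background filter, used here as an alternative. No interval for counting error applies to arrays, and their number limits the precision.

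Here the log2 of these intensities was quantile normalized in R 4.3.3 with the packages limma (3.58.1) and data.table (1.17.8). Control and outlier spots were left out, and replicate spots averaged. Probes were retained if well above background on 3 of 4 arrays of any group, which left 24593 of 55681 probes and 18021 genes. A gene was called when at least 1 kept probe had an adjusted p under 0.05. The brightest kept probe of a gene gave its values. One linear model with a mean per group was fitted in limma to all 12 arrays, with Benjamini-Hochberg adjustment over all probes. On simulated data for TrbE10 against control (24586 probes), limma recovered 29.9%, 65.7% and 93.9% of changes of 0.5, 1 and 2 log2 units with 7 false calls. The changes were placed in probes drawn from all those kept, so these shares do not carry over to the clock genes. The median residual SD of the clock genes was 0.869, against 0.207 over all genes kept. Correlations were computed in Python 3.11.15 with numpy 2.4.6 and pandas 2.3.3, and figures drawn with matplotlib 3.10.9.

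The members, gene lists and tests were chosen with earlier results of these data known, so their p-values describe these hearts. Named genes were all members, a set of clock genes whatever their values, any other listed clock or output gene called between groups (none was), and the 5 highest and 5 lowest r with Arntl and Dbp. Other listed genes are named after their values were seen. Adjustment over 45 pairs had been planned, and 36 remained because Npas2 was not kept. Alternatives covered 75th percentile scaling, normexp, the authors' values, the filter, the fit, a replicate block, a Y-linked covariate, the probe rule, Spearman's rho, and leaving out arrays.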

Additional observations from a re-analysis of the deposited data

Results flagged for a closer look

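In 5 of 33 groups of 4 hearts tested, 1 heart lay farther from its neighbour than Dixon's criterion allows, where chance gives about 1 in 20. In control replicate 1 these were Dbp (log2 signal 11.2), Nfil3 (11.3), the second Nr1d2 probe (8.80) and Per3 (4.04). In TrbE10 replicate 2 it was Per3 (4.55). Both Per3 values were not well above background. The flags for control replicate 1 concern 1 heart and correlated genes, so they are not independent of each other.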

How the results depend on the processing

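The count of called clock genes was 0 in every comparison under each alternative run, and in 573 recomputed changes none passed the threshold. The pooled r of Arntl and Dbp was -0.945 to -0.869 without 1 heart and passed. Without the heart of lowest Dbp in each group it lay at the threshold (r = -0.672, permutation p = 0.0497), and its rho (p = 0.147) and the r within groups (p = 0.0509) did not pass. The 32 correlated pairs became 30 to 32 under the other normalizations, filters and probe rule, 26 without subtraction of group means, 21 with Spearman's rho, 21 to 32 without 1 heart (21 without TrbE10 replicate 2) and 0 without the heart of lowest Dbp in each group. With the replicate number as a block 10 pairs passed, and 31 of 36 kept their sign. The numbers were not taken to pair the hearts, since not every same-numbered pair had a correlation over 0.1. Between the mutants 3 of 4 did (0.0092 to 0.47), between control and either mutant 0 of 4 did, and 6 of 24 cases correlated best with their own number. The block changed no call of a clock gene between groups.

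Several log2 changes changed sign, none of them called. The largest was Per1 in TrbE14 (0.45), and others were Per3 in TrbE14 (-0.43) and Per2 in TrbE14 (-0.31) and TrbE10 (-0.22). With the Y-linked covariate, TrbE14 against control gave -0.045 for Arntl, -0.14 for Clock, 0.082 for Nr1d2 and 0.019 for Per3, TrbE10 against control gave -0.051 for Clock, -0.0098 for Per1 and 0.25 for Per3, and TrbE10 against TrbE14 gave -0.26 for Dbp. With normexp, the change was -0.065 for Clock in TrbE14, -0.029 for Dbp between the mutants and 0.067 for Per2 in TrbE10. Scaling by the 75th percentile gave -0.046 and -0.065 for Dbp in TrbE10 and TrbE14 and -0.046 for Nr1d1 in TrbE10. The mean of probes gave -0.011 and -0.021 for Dbp in TrbE10 and TrbE14, and the authors' values gave 0.057 for Per2 in TrbE10. Without the heart of lowest Dbp in each group, the change was -0.028 for Clock between the mutants, -0.17 and -0.24 for Dbp and 0.52 and 0.28 for Per2 in TrbE10 and TrbE14. The cause was not tested.

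Without 1 heart, the changes in TrbE10 against control ranged from -0.50 to 0.31 for Arntl, -0.11 to 0.21 for Clock, -0.73 to 0.59 for Dbp, -0.69 to 0.049 for Nfil3, -0.28 to 0.46 for Nr1d1, -0.36 to 0.040 for Nr1d2, -0.55 to 0.71 for Per1, -0.75 to 0.55 for Per2 and -0.55 to 0.37 for Per3. Those in TrbE14 against control ranged from -0.26 to 0.45 for Arntl, -0.13 to 0.19 for Clock, -0.74 to 0.52 for Dbp, -0.48 to 0.25 for Nfil3, -0.22 to 0.12 for Nr1d2, -0.047 to 1.21 for Per1 and -0.69 to 0.30 for Per2. Between the mutants they ranged from -0.62 to 0.20 for Arntl, -0.082 to 0.089 for Clock, -0.49 to 0.57 for Dbp, -0.46 to 0.052 for Nfil3, -0.31 to 0.067 for Nr1d2, -1.09 to 0.26 for Per1 and -0.52 to 0.85 for Per2. Signal over background limits Npas2, Cry1, Ciart and, in the hearts of lowest Dbp, Per2 and Per3.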
